A study of Mus musculus with 45 samples.

Results

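The genes described here are 7 cytokine genes that macrophages and monocytes transcribe after contact with bacterial lipopolysaccharide (LPS): Tnf, Il6, Il12a, Il12b, Il23a, Il27 and Il10. They were taken by symbol from the 23594 genes of the deposited table, and all 7 had a row. Levels are given as TPM, a transcript's share of its library scaled by transcript length, which can be compared between genes. RNA was sequenced from 500 to 5000 cells per sample of 3 types sorted from C57BL/6J mouse lung: inflammatory monocytes (iMo), macrophages of the interstitium (IM) and macrophages of the alveoli (AM). Groups were mice without LPS (0h) and mice at 2, 6 and 20h after intraperitoneal LPS. The series text gives a later last time than the labels, which were followed. Of 45 libraries, the 27 of 0h and intraperitoneal LPS were used: 4 of AM at 0h, 3 of AM at 6h and 2 in each of the other 10 of 12 groups. The 18 intranasal libraries were left out because their row names do not match their values: they correlated with the 27 at Pearson r of 0.01 to 0.025 across genes, against 0.936 to 0.981 within groups. No gene was deleted or introduced in these mice, and the labels do not say whether replicates were separate animals, so p-values measure the spread between libraries, which may be technical.

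Tumour necrosis factor (TNF) is made as a membrane protein, cut free by the protease ADAM17, and acts early through its receptors TNFR1 and TNFR2. Interleukin-6 (IL-6) acts through its own receptor chain and gp130, and drives STAT3 and the liver's acute phase response. The IL-12 family is built of paired chains: Il12a (p35) with Il12b (p40) makes IL-12, Il23a (p19) with Il12b makes IL-23, and Il27 (p28) with Ebi3 makes IL-27. IL-10 restrains macrophage activation, acts through Il10ra, Il10rb and STAT3, and is a known repressor of the other cytokines of this set. Transcription of these genes after Toll-like receptor signalling is known to depend on NF-kappaB, C/EBP, AP-1, IRF and PU.1 proteins to differing degrees.

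RefSeq promoter sequences were found for 4 of the 7 genes, Tnf, Il6, Il12a and Il12b. The 250 bases before the annotated start are shown for 3 of them, because Tnf and Il6 were among the genes that rose after LPS while Il12b was not detected above trace level. The build is GRCm38.p6, and each is printed 5′ to 3′ on the gene's own strand. Capitals mark matches, on either strand, to the motifs searched: the kappaB consensus, AP-1 (TGANTCA), CRE (TGACGTCA), C/EBP (TTGCNNAA), PU.1 (GAGGAA), the ISRE core and the TATA box (TATAAA).
Tnf, chr17:35202008-35202257, minus strand: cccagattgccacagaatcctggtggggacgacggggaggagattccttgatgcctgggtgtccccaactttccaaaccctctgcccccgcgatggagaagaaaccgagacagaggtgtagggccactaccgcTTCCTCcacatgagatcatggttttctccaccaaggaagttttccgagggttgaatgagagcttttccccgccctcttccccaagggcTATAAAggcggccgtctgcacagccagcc
Il6, chr5:30012864-30013113, plus strand: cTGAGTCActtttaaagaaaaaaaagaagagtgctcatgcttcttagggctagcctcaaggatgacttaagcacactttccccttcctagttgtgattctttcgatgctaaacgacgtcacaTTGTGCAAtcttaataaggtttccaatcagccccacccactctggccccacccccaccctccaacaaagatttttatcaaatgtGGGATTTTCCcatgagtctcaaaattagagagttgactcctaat
Il12b, chr11:44399813-44400062, plus strand: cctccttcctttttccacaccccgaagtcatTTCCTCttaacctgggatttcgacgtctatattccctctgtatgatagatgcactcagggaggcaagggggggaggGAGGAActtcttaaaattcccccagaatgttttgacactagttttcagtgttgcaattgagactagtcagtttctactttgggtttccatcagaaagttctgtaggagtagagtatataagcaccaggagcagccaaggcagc

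The Il6 window held a kappaB match 44 to 35 bases before the start, a C/EBP match at 128 to 121 and an AP-1 match at 249 to 243. In Tnf the matches were a TATA box at 29 to 24 bases before the start and a PU.1 match on the other strand at 117 to 112. The Il12b window held PU.1 matches at 219 to 214 and 143 to 138. Neither of the 2 annotated starts of Il12a had a match to any of the 7 motifs. No capitals of these windows overlapped. Among 32851 promoters of the same length, 7.25% held the kappaB consensus, 6.75% AP-1, 9.56% C/EBP, 23.3% PU.1 and 12.4% the TATA box. These are letter matches in short windows and were not tied to binding here.

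Before the results, the libraries themselves need description. The AM libraries carried AM markers at summed levels of 3989 to 15590 TPM, against at most 2091 TPM elsewhere. The IM libraries carried 10 IM markers at 6242 to 7737 TPM at 0h, but at 427.1 to 1142 TPM at 2h, 478.9 to 542.7 TPM at 6h and 2031 to 2213 TPM at 20h. They also carried 10 neutrophil markers at 11210 to 22540 TPM at 0h, 19680 to 22250 TPM at 2h, 17170 to 56530 TPM at 6h and 28110 to 34830 TPM at 20h, with Camp alone at 0 in both libraries of 0h. In iMo the neutrophil sum was 77.68 to 92.53 TPM at 0h, 291.5 to 630.7 TPM at 2h, 1706 to 3014 TPM at 6h and 2882 to 2912 TPM at 20h, and in AM it did not pass 421.7 TPM. IM below therefore means libraries labelled IM, which after LPS held few IM marker transcripts. In iMo, 8 classical monocyte markers summed to 8454 to 12920 TPM at 0h and 5079 to 6876 TPM at 2h. They summed to 4111 to 5194 TPM at 6h and 2231 to 3015 TPM at 20h. In IM the sums were 3171 to 6247, 3128 to 6235, 2174 to 5944 and 2631 to 2954 TPM at these times. These sums overlapped between IM and iMo at 2, 6 and 20h. The 10 IM markers summed in iMo to 1326 to 1376 TPM at 0h and 635.9 to 1106 TPM at 2h. At 6 and 20h they summed to 208.3 to 252.9 and 1728 to 1865 TPM, and they overlapped IM at 2h alone. At 2h neither marker set therefore separated IM from iMo, and iMo too means libraries labelled iMo. At 0h the IM libraries also held 8 endothelial markers at 527.6 to 711 TPM and 7 lung epithelial markers at 347.6 to 703.7 TPM. Their 8 lymphocyte markers summed to 117.5 to 135.4 TPM at 0h. After LPS these 3 sums in IM did not pass 41.55, 58.28 and 31.77 TPM, so comparisons with 0h in IM also span this difference. The part of neutrophil or other RNA in any cytokine level was not tested. The AM library A161219 of 20h carried IM markers at 3822 TPM, against 22.28 TPM in its partner. Titles end in a code whose meaning the labels do not give, by which replicates are named here: N160623 (no letter in the titles), A161219 or B161219, and A171227 to D171227. All IM and iMo libraries of 0h and 3 of 4 AM libraries of 0h end in the digits of A171227, while the libraries after LPS are N160623, A161219 or B161219. In IM and iMo, time against 0h and title code therefore cannot be told apart. Comparisons between times after LPS do not use 0h, and all iMo libraries after LPS are A161219 or B161219. Summed TPM ranged from 331473 to 551635, and read depth is not given in the sources used here.

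After LPS, Tnf, Il6, Il12a, Il27 and Il10 rose in IM and iMo. Il23a rose in IM and was not called in iMo, no change in AM passed the test, and Il12b was too low to be tested. Tests were limma fits of log2(TPM + 1) over the 8937 genes that reached 5 TPM in 2 or more libraries, called at an adjusted p under 0.05. Of the 7 genes, 6 passed that filter and Il12b did not. Il6, Il12a, Il23a and Il10 had no library of 0h at 5 TPM, so they passed only through LPS libraries, and Il23a through exactly 2. From each log2 fold change the median over the 8937 genes in that comparison was subtracted, which lay between -0.795 (IM at 2h against 0h) and 0.415 (IM at 20h against 6h), while p-values belong to the values before that shift. Bulk RNA cannot tell fewer expressing cells from less RNA per cell.

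Against 0h, all 6 tested genes were higher in IM at 2h, where 7.99% of all genes tested were called higher. At 6h 5 were higher in IM (background 4.63%) and at 20h 2, Tnf and Il10 (background 4.05%). In iMo 5 were higher at 2h (background 8.41%) and 3 at 6h (background 5.95%). At 20h 3 were higher in iMo (background 7.39%) and Il27 was lower (background for lower calls 14.8%). In AM none was called at 2, 6 or 20h, where 0.134%, 1.3% and 0.112% of all genes were called. At an unadjusted p under 0.05 the AM comparisons gave 0 of 18 tests. The members' median relative to all genes was 4.29 at 2h in IM, 3.25 in iMo and 0.26 in AM. Since most members entered the fit through LPS libraries, these counts are given as a description.

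**Figure D1:**
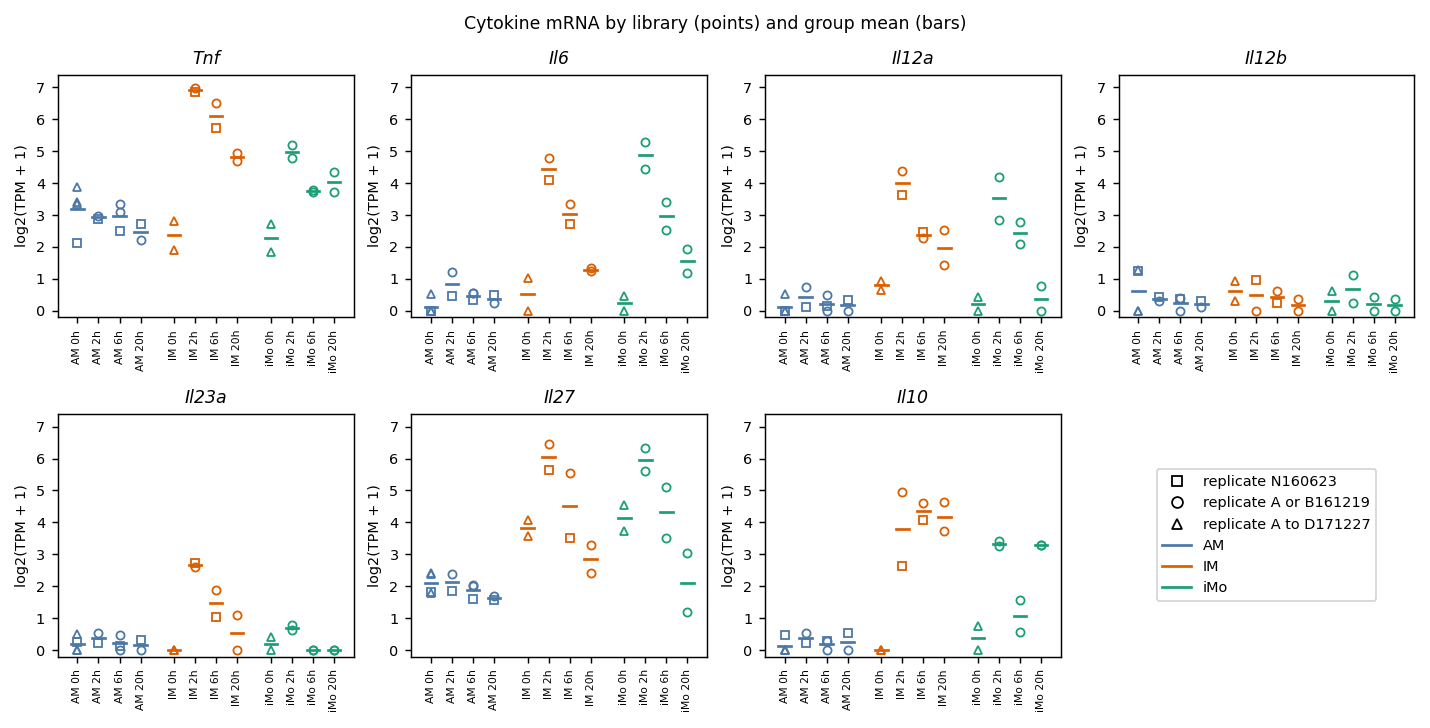
Level of each cytokine mRNA, as log2(TPM + 1), in every library (points, shaped by title code) and as the mean of those values in each group (bars), for AM, IM and iMo at 0, 2, 6 and 20h after intraperitoneal LPS. Tnf, Il6, Il12a and Il27 were at their peak at 2h in IM and iMo, Il12b stayed at or under 1.435 TPM in all 27 libraries, and the AM libraries lay low for every gene but Tnf.

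Tnf was the most abundant of the set in IM after LPS. Its level in IM was 2.77 and 6.05 TPM at 0h, 113 and 126 TPM at 2h, 89.6 and 51.4 TPM at 6h and 29.8 and 24.8 TPM at 20h. Every IM library after LPS lay above both of 0h, with log2 fold changes of 5.34 ± 0.46 (SE, adjusted p = 2.13e-07), 4.27 ± 0.46 (adjusted p = 3.73e-06) and 2.54 ± 0.46 (adjusted p = 0.000612). All 3 IM calls held without each library and with a term for title code. For comparisons with 0h that term rests on the AM library N160623 of 0h, so it cannot separate code from LPS in IM or iMo. The iMo libraries held 2.605 and 5.63 TPM at 0h, 26.4 and 35.3 TPM at 2h, 12.8 and 12.2 TPM at 6h and 19.3 and 12.2 TPM at 20h. The iMo groups after LPS also lay apart from 0h, with log2 fold changes of 3.11 ± 0.46 (adjusted p = 0.000147), 1.95 ± 0.46 (adjusted p = 0.0205) and 2.05 ± 0.46 (adjusted p = 0.00976). The iMo call of 6h ended without replicate A171227 of 0h, A161219 of 6h or B161219 of 6h (adjusted p = 0.219, 0.0788 and 0.0803), and that of 20h without A171227 of 0h or A161219 of 20h (adjusted p = 0.134 and 0.104).

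Between IM and iMo, Tnf differed after LPS and not detectably before. It was lower in iMo than in IM at 2h, by a log2 fold change of -2.33 ± 0.46 (adjusted p = 0.0263), and at 6h, by -2.46 ± 0.46 (adjusted p = 0.00355), where 1.57% and 2.29% of all genes were called lower. At 20h the difference was -0.70 ± 0.46 (adjusted p = 0.887) and at 0h -0.22 ± 0.46 (adjusted p = 0.958). The test of the responses from 0h gave -2.15 ± 0.66 at 2h (adjusted p = 0.162, but 0.0247 with a pseudocount of 5 TPM, 0.0295 with quantile normalization and 0.0345 with a term for title code) and -2.26 ± 0.66 at 6h (adjusted p = 0.0475), and the latter ended without any of 19 of the 27 libraries (adjusted p = 0.0503 to 0.279). Of the direct calls, that at 2h ended without IM N160623, IM A161219 or iMo A161219 of 2h (adjusted p = 0.074, 0.093 and 0.285), with array weights (adjusted p = 0.2) and in a fit of the compared libraries alone (adjusted p = 0.157), and that at 6h without IM A161219 or iMo B161219 of 6h (adjusted p = 0.114 and 0.0559). The neutrophil marker sums given above were higher in IM than in iMo at each of these times. Their part in the difference was not tested.

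The steps of Tnf between times after LPS were not called in the main fit, and some were under other settings. Between 2 and 6h the IM libraries did not overlap, and the log2 fold change was -1.01 ± 0.46 (adjusted p = 0.34). From 6 to 20h in IM it was -1.70 ± 0.46 (adjusted p = 0.106), and it was called lower under 6 alternatives, among them quantile normalization and a term for title code (adjusted p = 0.0105 to 0.0493). In iMo it was -1.14 ± 0.46 from 2 to 6h (adjusted p = 0.112, but 0.0306 with a term for title code and 0.0271 without the libraries N160623) and 0.08 ± 0.46 from 6 to 20h (adjusted p = 0.804). At 6h the group mean stood at 59.0% of the 2h mean in IM and at 40.5% in iMo, and at 20h at 22.9% and 51.0%.

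In AM, Tnf was 3.33, 9.08, 9.62 and 13.7 TPM at 0h, 6.42 and 6.84 TPM at 2h, 4.71, 7.47 and 9.14 TPM at 6h and 3.62 and 5.65 TPM at 20h. The library at 3.33 TPM is the AM library N160623 of 0h, below all 3 AM libraries N160623 after LPS, which ranged from 4.71 to 6.42 TPM. Over all 4 libraries of 0h the AM log2 fold changes were -0.22 ± 0.40, -0.05 ± 0.35 and -0.40 ± 0.40 (adjusted p = 1, 0.879 and 0.562). When the 6 libraries named N160623 were left out, a choice made after seeing the data, Tnf was called lower in AM at 20h (adjusted p = 0.0343). That fit sets 1 library, A161219 with its IM markers, against 3 and assumes that it varies like the other groups. At 0h the median AM level, 9.35 TPM, lay above every IM and iMo library, but the differences of IM and iMo from AM were -0.82 ± 0.40 and -1.04 ± 0.40 (adjusted p = 0.151 and 0.101). Both were called lower without the AM library N160623 (adjusted p = 0.0157 and 0.0102). From 2h on, Tnf was higher in IM than in AM at all 3 times, by 4.75 ± 0.46, 3.51 ± 0.42 and 2.11 ± 0.46 (adjusted p = 3.3e-07, 3.57e-06 and 0.000557). In iMo it was higher than in AM at 2h, by 2.34 ± 0.46 (adjusted p = 0.00109), and at 20h, by 1.40 ± 0.46 (adjusted p = 0.0208), but at 6h the difference of 1.00 ± 0.42 did not pass (adjusted p = 0.185, but 0.0192 with quantile normalization). The call of 20h ended without AM A161219, which carried IM markers, or iMo A161219 (adjusted p = 0.154 and 0.2), and with no filter (adjusted p = 0.0517).

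**Figure D2:**
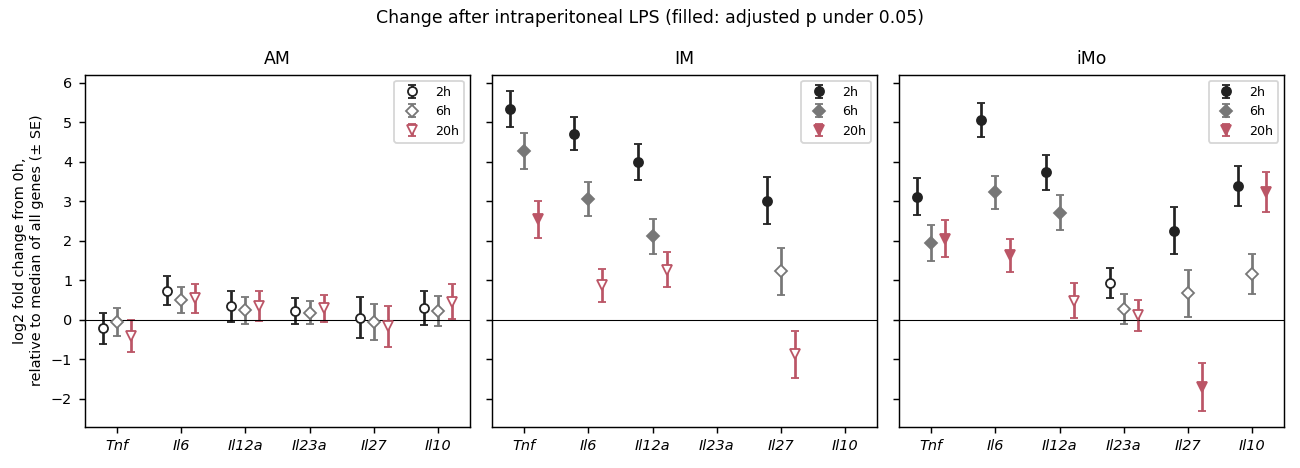
Log2 fold change from 0h of the 6 tested cytokines in AM, IM and iMo at 2, 6 and 20h, with the median over all tested genes subtracted and with standard errors; filled symbols passed an adjusted p under 0.05. Il23a and Il10 are not drawn in IM because both of its 0h libraries are listed at 0, no AM symbol is filled, and Tnf in IM falls from 5.34 at 2h to 2.54 at 20h.

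Il6 rose at 2h in IM and iMo, and its level was lower at each later time in both. In IM it was 0 and 1.03 TPM at 0h, 16.0 and 26.4 TPM at 2h, 9.17 and 5.58 TPM at 6h and 1.35 and 1.55 TPM at 20h. The iMo libraries held 0 and 0.389 TPM at 0h, 20.8 and 38.4 TPM at 2h, 9.68 and 4.82 TPM at 6h and 2.81 and 1.26 TPM at 20h. The libraries of 2h lay above those of 6h, and those of 6h above those of 20h, in both cell types. At 2h the log2 fold changes were 4.71 ± 0.42 in IM (adjusted p = 3.59e-07) and 5.06 ± 0.42 in iMo (adjusted p = 3.61e-08). At 6h they were 3.05 ± 0.42 (adjusted p = 0.000118) and 3.22 ± 0.42 (adjusted p = 5.81e-05). At 20h Il6 was still called higher than 0h in iMo, by 1.63 ± 0.42 (adjusted p = 0.0286), and not in IM, at 0.87 ± 0.42 (adjusted p = 0.258, but 0.049 with quantile normalization). The difference of those responses was 0.78 ± 0.60 (adjusted p = 0.781). The iMo call of 20h ended without A171227 or B171227 of 0h or A161219 of 20h (adjusted p = 0.184, 0.0604 and 0.235), with a term for title code (adjusted p = 0.473), with a pseudocount of 5 TPM (adjusted p = 0.174), without the filter (adjusted p = 0.0681) and in a fit of the compared libraries alone (adjusted p = 0.0551).

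The fall of Il6 passed the test from 2 to 6h in IM, at -1.60 ± 0.42 (adjusted p = 0.045), and in iMo, at -1.81 ± 0.42 (adjusted p = 0.00539). It also passed from 6 to 20h in IM, at -2.15 ± 0.42 (adjusted p = 0.023), and missed it in iMo, at -1.62 ± 0.42 (adjusted p = 0.0569), where 5 alternatives called it (adjusted p = 0.0038 to 0.0457). The background of lower calls was 2.77%, 4.82%, 1.12% and 1.16% in these 4 comparisons. None of these 3 calls held each time a library was left out, and a pseudocount of 0.1 TPM ended all 3 (adjusted p = 0.415, 0.23 and 0.194). The IM call from 2 to 6h ended without any of 13 of the 27 libraries (adjusted p = 0.0506 to 0.281) and under other settings too, such as array weights (adjusted p = 0.206) or a filter of 1 TPM (adjusted p = 0.0591), and that from 6 to 20h without any of the 4 libraries compared (adjusted p = 0.0513 to 0.248). The iMo call ended without B161219 of 2h or of 6h (adjusted p = 0.142 and 0.112). AM libraries held at most 0.451 TPM of Il6 at 0h and 1.31 TPM after LPS. Against AM, Il6 was higher in IM by 4.36 ± 0.42 at 2h and 2.94 ± 0.39 at 6h (adjusted p = 3.67e-07 and 1.48e-05), and in iMo by 4.33 ± 0.42 and 2.72 ± 0.39 (adjusted p = 7.09e-08 and 2.22e-05). IM and iMo did not differ detectably at any time after LPS, with differences of 0.04 ± 0.42, -0.16 ± 0.42 and 0.35 ± 0.42 (adjusted p = 0.555, 0.978 and 1).

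Il12a, the p35 chain, rose in IM and iMo at 2h while Il12b, the p40 chain it needs to form IL-12, stayed at trace level. Il12a in IM was 0.587 and 0.905 TPM at 0h, 11.3 and 19.7 TPM at 2h, 3.88 and 4.54 TPM at 6h and 4.73 and 1.70 TPM at 20h. The iMo levels were 0 and 0.341 TPM at 0h, 6.26 and 17.2 TPM at 2h, 5.86 and 3.28 TPM at 6h and 0.702 and 0 TPM at 20h. The libraries of 2 and 6h lay above those of 0h in both cell types. At 2h the log2 fold changes were 3.99 ± 0.45 in IM (adjusted p = 7.15e-06) and 3.74 ± 0.45 in iMo (adjusted p = 9.38e-06), and at 6h 2.11 ± 0.45 (adjusted p = 0.0123) and 2.71 ± 0.45 (adjusted p = 0.000756). With a term for title code the calls of 6h ended (adjusted p = 0.229 in IM and 0.105 in iMo). The IM call of 6h also ended without A171227 of 0h or N160623 of 6h (adjusted p = 0.0859 and 0.0806), without the libraries N160623 (adjusted p = 0.0793) and with a pseudocount of 0.1 TPM (adjusted p = 0.136). At 20h the change from 0h was 1.27 ± 0.45 in IM (adjusted p = 0.0886, but 0.00533 with quantile normalization and 0.023 with array weights). In iMo it was 0.48 ± 0.45 (adjusted p = 0.817). AM held at most 0.686 TPM.

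From 2 to 6h Il12a fell in IM by 1.82 on the log2 scale (SE 0.45, adjusted p = 0.0281), a call that ended without A161219 of 2h or either library of 6h (adjusted p = 0.102 to 0.197), with array weights (adjusted p = 0.173) and with no filter (adjusted p = 0.0713). That IM call also ended with a pseudocount of 0.1 TPM (adjusted p = 0.384) and after rescaling without the abundant transcripts Rn45s and Lars2 (adjusted p = 0.103). The step in iMo was -1.0 ± 0.45 (adjusted p = 0.143, but 0.0478 with a pseudocount of 5 TPM). From 6 to 20h Il12a fell in iMo by 2.25 on the log2 scale (SE 0.45, adjusted p = 0.0102), a call that ended without A161219 of 6h or B161219 of 20h (adjusted p = 0.0645 and 0.155) and with a pseudocount of 0.1 TPM (adjusted p = 0.056). At 20h Il12a was higher in IM than in AM, by 1.57 ± 0.45 (adjusted p = 0.00461), and not in iMo, at 0.05 ± 0.45 (adjusted p = 0.806). The call in IM ended without B161219 (adjusted p = 0.144). The difference between iMo and IM at 20h was -1.50 ± 0.45 (adjusted p = 0.0913, but 0.00746 with array weights).

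Il12b did not pass 1.435 TPM in any of the 27 libraries and was listed at 0 in 8 of them. Its group means ran from 0.144 TPM in iMo at 20h to 0.696 TPM in AM at 0h, and neighbours in that order overlapped throughout. In the 5 libraries with at least 5 TPM of Il12a, Il12b reached at most 1.18 TPM. Fitted without the filter on low values, no Il12b comparison had an adjusted p below 0.538, and the test of its response among cell types gave an adjusted p of 0.971. A change at this level was not detectable with these libraries.

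Il23a, the p19 chain of IL-23, reached 5 TPM in IM at 2h and in no other group. Its level in IM was 0 in both libraries of 0h, 5.65 and 5.07 TPM at 2h, 2.73 and 1.07 TPM at 6h and 1.13 and 0 TPM at 20h. It was called higher than 0h in IM at 2h (adjusted p = 1.08e-05) and 6h (adjusted p = 0.00736), with no fold given because 0h is listed at 0. The call of 6h ended without A161219 of 6h (adjusted p = 0.111) and with a term for title code (adjusted p = 0.298). In iMo it was 0 and 0.326 TPM at 0h, 0.545 and 0.716 TPM at 2h and listed at 0 in all 4 later libraries. AM held at most 0.438 TPM. IM exceeded AM by 3.06 ± 0.38 at 2h (adjusted p = 3.34e-05) and 1.65 ± 0.35 at 6h (adjusted p = 0.00689), and the latter ended without IM A161219 (adjusted p = 0.16). Il23a was lower in iMo than in IM at 2h, by -2.37 ± 0.38 (adjusted p = 0.00445), and at 6h (adjusted p = 0.0331). The responses at 2h differed by -2.46 ± 0.54 (adjusted p = 0.0207, background of lower calls 0.246%). The IM part of that difference starts from libraries of 0h listed at 0, so its size depends on the pseudocount. Il23a passed the filter only through the 2 IM libraries of 2h. Calls that use that group, and the share of all genes beside them, are therefore given as a description. That difference of responses ended without any of 6 libraries (adjusted p = 0.0545 to 0.0956). The direct call at 2h ended without IM A161219 or iMo A161219 (adjusted p = 0.0525 and 0.0555), and that at 6h without any of 3 libraries of 6h (adjusted p = 0.12 to 0.41). Both direct calls were also lost with a pseudocount of 0.1 TPM (adjusted p = 0.245 and 0.161) and with array weights (adjusted p = 0.148 and 0.126). The difference of responses at 2h was lost under these settings too (adjusted p = 0.433 and 0.0792). It was also lost after rescaling without the abundant transcripts Rn45s and Lars2 (adjusted p = 0.0665).

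Il27, the p28 chain, had the highest level of the 7 in IM and iMo without LPS. At 0h it was 10.9 and 15.9 TPM in IM, 12.3 and 22.1 TPM in iMo, and 2.43 to 4.39 TPM in the 4 AM libraries. IM and iMo lay above AM with no overlap, by 1.72 ± 0.52 (adjusted p = 0.0146) and 1.88 ± 0.52 (adjusted p = 0.00402), where 15% and 16.2% of all genes were called higher. The first call ended without IM B171227 (adjusted p = 0.158) and the other without iMo B171227 (adjusted p = 0.101). Il27 was the sole member called between cell types at 0h, and all these libraries but 1 of AM carry the same title code.

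After LPS, Il27 in IM was 48.4 and 87.4 TPM at 2h, 45.6 and 10.3 TPM at 6h and 4.39 and 8.80 TPM at 20h. The iMo levels were 47.4 and 79.0 TPM at 2h, 33.8 and 10.4 TPM at 6h and 1.30 and 7.16 TPM at 20h. The groups of 2h lay above those of 0h, those of 6h overlapped them, and those of 20h lay below them. The rise at 2h was 3.02 ± 0.60 in IM (adjusted p = 0.00419) and 2.25 ± 0.60 in iMo (adjusted p = 0.0226), and both calls ended with a term for title code (adjusted p = 0.0763 and 0.369). The iMo call also ended without A171227 of 0h or B161219 of 2h (adjusted p = 0.173 and 0.189). At 20h Il27 was below its 0h level in iMo by -1.70 ± 0.60 (adjusted p = 0.0194), which ended without B171227 of 0h or A161219 of 20h (adjusted p = 0.168 and 0.294), with a term for title code (adjusted p = 0.173), without the filter (adjusted p = 0.0513) and after rescaling without the abundant transcripts Rn45s and Lars2 (adjusted p = 0.0734). In IM the difference at 20h was -0.87 ± 0.60 (adjusted p = 0.338).

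The step of Il27 from 6 to 20h was -2.40 ± 0.60 in iMo (adjusted p = 0.0382) and -2.07 ± 0.60 in IM (adjusted p = 0.107, but 0.0186 with quantile normalization, 0.0387 with a term for title code and 0.0337 without the libraries N160623). The iMo call ended without A161219 of 6h or of 20h (adjusted p = 0.251 and 0.452), with a pseudocount of 5 TPM (adjusted p = 0.0612), with no filter (adjusted p = 0.0602) and in a fit of the compared libraries alone (adjusted p = 0.0801). Il27 was higher in IM and iMo than in AM at 2h, by 4.69 ± 0.60 and 4.13 ± 0.60 (adjusted p = 1.16e-05 and 1.84e-05), and at 6h, by 3.02 ± 0.55 and 2.66 ± 0.55 (adjusted p = 0.000572 and 0.00141). Without A161219 of IM or of iMo the calls at 6h ended (adjusted p = 0.0603 and 0.0728). At 20h neither passed (adjusted p = 0.175 and 0.652), and AM lay between 1.97 and 4.39 TPM in all 11 of its libraries.

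Ebi3, which pairs with Il27 to form IL-27, stood above Il27 in 22 of 27 libraries. In IM, Ebi3 was 28.1 and 42.8 TPM at 0h, 335 and 458 TPM at 2h, 184 and 85.0 TPM at 6h and 128 and 142 TPM at 20h. In iMo it was 29.5 and 43.6 TPM at 0h, 210 and 345 TPM at 2h, 81.2 and 115 TPM at 6h and 73.1 and 66.3 TPM at 20h. At 20h, when both Il27 libraries of each cell type lay below those of 0h, Ebi3 in IM was still higher than at 0h, by 2.02 ± 0.51 (adjusted p = 0.0112), while in iMo the difference of 1.25 ± 0.51 did not pass (adjusted p = 0.187). The ratio of Ebi3 to Il27 in IM and iMo libraries ran from 4.37 to 6.93 at 2h, from 2.4 to 11.1 at 6h and from 9.27 to 56.1 at 20h. In AM, Ebi3 was at most 8.08 TPM and was called higher at 6h, by 1.70 ± 0.39 (adjusted p = 0.0437).

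**Figure D3:**
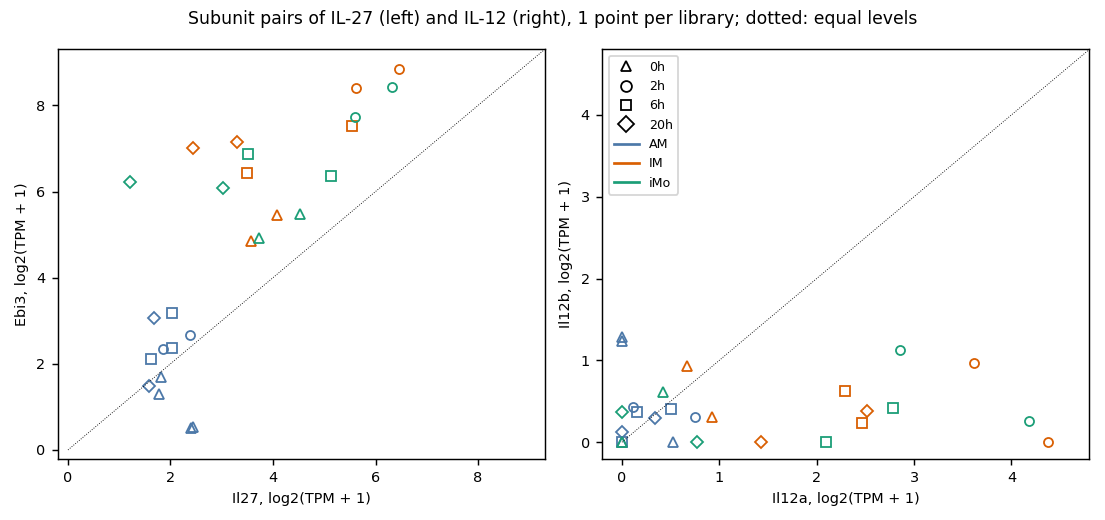
Levels, as log2(TPM + 1), of the paired chains of IL-27 (Ebi3 against Il27, left) and IL-12 (Il12b against Il12a, right), 1 point per library, coloured by cell type and shaped by time; the dotted line marks equal levels. Ebi3 lies above the line in all IM and iMo libraries, while Il12b does not pass 1.435 TPM where Il12a reaches 19.7 TPM.

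Il10 was high in IM at all 3 times after LPS. It was listed at 0 in both IM libraries of 0h, and was 5.21 and 30.2 TPM at 2h, 23.5 and 15.9 TPM at 6h and 12.4 and 23.7 TPM at 20h. Each time was called higher than 0h (adjusted p = 3.95e-06, 1.77e-06 and 3.46e-06), and the 3 groups after LPS overlapped. The steps were 0.34 ± 0.50 from 2 to 6h (adjusted p = 0.603) and -0.58 ± 0.50 from 6 to 20h (adjusted p = 0.87). The IM group means stood at 17.7 ± 17.7, 19.7 ± 5.38 and 18.0 ± 7.98 TPM (SD, n = 2), and the 2 libraries of 2h were 5.21 TPM (N160623) and 30.2 TPM (A161219).

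In iMo, Il10 was up at 2h, low at 6h and up again at 20h. It was 0 and 0.68 TPM at 0h, 8.51 and 9.69 TPM at 2h, 1.95 and 0.467 TPM at 6h and 8.75 and 8.81 TPM at 20h. The libraries of 2 and 20h lay above those of 0 and 6h, which overlapped each other. Against 0h the log2 fold changes were 3.38 ± 0.50 at 2h (adjusted p = 0.000127), 1.17 ± 0.50 at 6h (adjusted p = 0.319) and 3.23 ± 0.50 at 20h (adjusted p = 0.000276). A term for title code ended the calls of 2 and 20h (adjusted p = 0.137 and 0.216). Within the 6 iMo libraries after LPS, which share a code, the fall from 2 to 6h was -2.19 ± 0.50 (adjusted p = 0.00518) and the rise from 6 to 20h 2.04 ± 0.50 (adjusted p = 0.0131). The latter was the sole rise called between successive times, against a background of 2.86%. The fall ended without B161219 of 2h or of 6h (adjusted p = 0.0689 and 0.107), the rise without B161219 of 6h or either library of 20h (adjusted p = 0.0985 to 0.271), and both with a pseudocount of 0.1 TPM (adjusted p = 0.0799 and 0.113).

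At 6h Il10 was lower in iMo than in IM by -3.39 ± 0.50 (adjusted p = 0.000233). The responses from 0h differed at 6h by -3.65 ± 0.71 (adjusted p = 0.00295, background of lower calls 0.47%), at 2h by -1.13 ± 0.71 (adjusted p = 0.738) and at 20h by -1.02 ± 0.71 (adjusted p = 0.481). Both IM libraries of 0h are listed at 0, so the sizes of these differences of responses depend on the pseudocount. The direct call at 6h held under every alternative run, and the difference of responses under all but a pseudocount of 0.1 TPM (adjusted p = 0.0667). AM libraries held at most 0.457 TPM of Il10 at any time. IM exceeded AM by 4.18 ± 0.50, 4.54 ± 0.46 and 3.68 ± 0.50 (adjusted p = 7e-06, 2.22e-07 and 2.77e-06), and iMo exceeded AM at 2 and 20h by 3.25 ± 0.50 and 2.87 ± 0.50 (adjusted p = 5.35e-05 and 0.000103). At 6h the difference of iMo from AM was 1.10 ± 0.46 and did not pass (adjusted p = 0.168). It was called with quantile normalization (adjusted p = 0.0478) and after rescaling without Rn45s and Lars2 (adjusted p = 0.0429).

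**Figure D4:**
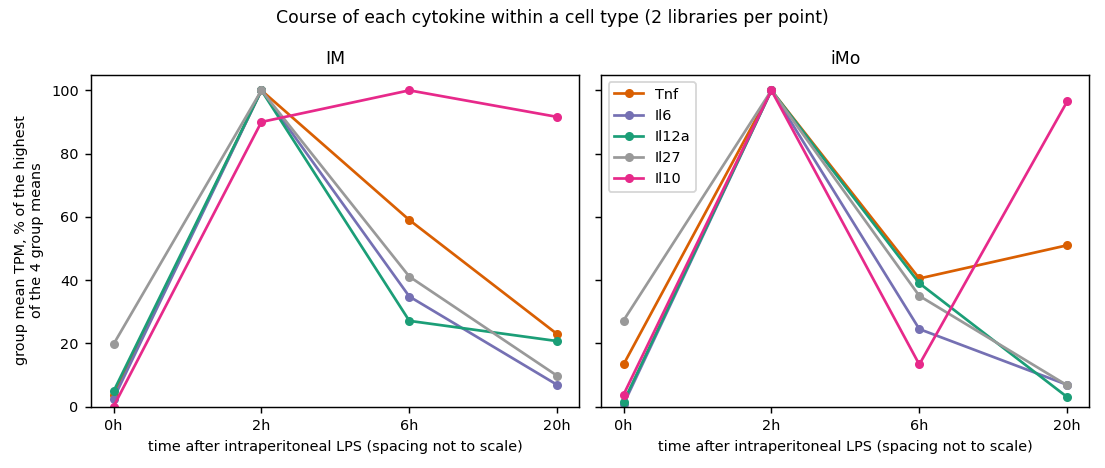
Group mean TPM of 5 cytokines in IM and iMo at 0, 2, 6 and 20h, each as a percentage of the highest of its 4 group means in that cell type (2 libraries per point, no error drawn). Il6 falls to 6.85% of its 2h mean in IM and 6.87% in iMo by 20h, whereas Il10 stands at 91.6% of its highest mean in IM and 96.5% in iMo.

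The response to LPS differed among the 3 cell types for 5 of the 6 genes tested, by the F test over the 3 times, where 25.1% of all genes passed. As Il6, Il12a, Il23a and Il10 entered the fit only through LPS libraries in which they were high, that count is a description and not a result about the set. Adjusted p was 0.000155 for Tnf, 0.000191 for Il10, 0.000417 for Il6, 0.00217 for Il12a and 0.0136 for Il23a, and 0.0614 for Il27. Across the alternatives the count ran from 2, with a pseudocount of 0.1 TPM, to 6, with Il27 included, under several settings such as quantile normalization or a term for title code. Counted over pairs of cell types at 2, 6 and 20h, 30 of 54 member comparisons were called. The share of all genes called ran from 1.25% (iMo against IM at 20h) to 54.6% (IM against AM at 2h). Like the F test count, this count is a description. At 2, 6 and 20h, 6, 6 and 3 genes were higher in IM than in AM (backgrounds 12.7%, 12% and 11.5%) and 5, 3 and 2 were higher in iMo than in AM (backgrounds 13.8%, 10.5% and 8.92%). The other 5 were lower in iMo than in IM (backgrounds of lower calls 1.57%, 2.29% and 1.21%). These were Tnf at 2 and 6h, Il23a at 2 and 6h and Il10 at 6h, and no member was higher in iMo than in IM.

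Receptors for these cytokines were measured with 10 genes, of which Il12rb1, Il23r and Il27ra did not pass the filter. Tnfrsf1b, which encodes TNFR2, rose in IM from 83.0 and 102 TPM at 0h to 315 and 400 TPM at 2h, and in iMo from 94.2 and 83.8 TPM to 456 and 626 TPM. The log2 fold changes were 2.73 ± 0.42 (adjusted p = 0.000662) and 3.00 ± 0.42 (adjusted p = 7.39e-05), and Tnfrsf1b in AM did not pass the test at any time. Tnfrsf1a, which encodes TNFR1, was higher in IM and iMo than in AM at 0h, by 1.11 ± 0.32 and 0.95 ± 0.32 (adjusted p = 0.00977 and 0.0103), and was not called after LPS in any cell type.

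Lower calls were common among all genes after LPS: 40.8% in IM at 2h and 8.39% at 20h, and 24% in iMo at 2h and 23.1% at 6h. In iMo 1, 2 and 2 of 7 tested receptors were called lower at 2, 6 and 20h, near the 14.8% to 24% of all genes, so the count is no result about receptors. The receptors called were Il6ra and Il10ra, and their partner chains Il6st and Il10rb were not called in iMo. Il6ra was 107 and 93.5 TPM in iMo at 0h, 46.5 and 51.3 TPM at 2h, 48.0 and 52.0 TPM at 6h and 28.1 and 33.0 TPM at 20h. Relative to all genes the log2 fold changes were -0.59 ± 0.31, -0.50 ± 0.31 and -1.37 ± 0.31 (adjusted p = 0.0135, 0.0182 and 0.000485). In IM, Il6ra was called lower at 2h (adjusted p = 0.0202), but with the median over all genes subtracted its change was -0.09 ± 0.31. Il10ra, the ligand-binding chain for IL-10, was 73.6 and 109 TPM in iMo at 0h, 87.0 and 84.2 TPM at 2h, 35.3 and 24.5 TPM at 6h and 30.1 and 37.3 TPM at 20h. It was lower at 6 and 20h, by -1.09 ± 0.45 and -1.08 ± 0.45 (adjusted p = 0.0119 and 0.0309). At 0h Il10ra was higher in IM and iMo than in AM, by 2.05 ± 0.39 and 2.42 ± 0.39 (adjusted p = 0.000228 and 1.47e-05). Il12rb2, a chain of the IL-12 receptor, was instead lower than in AM, by -1.95 ± 0.39 and -1.87 ± 0.39 (adjusted p = 0.000381 and 0.00124, backgrounds of lower calls 11% and 13.4%).

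Of the 3 genes for release of TNF, Rhbdf2, which encodes the ADAM17 partner iRhom2, rose with Tnf. It was 13.1 and 13.6 TPM in IM at 0h, 51.8 and 76.3 TPM at 2h and 42.6 and 25.2 TPM at 6h, with log2 fold changes of 2.95 ± 0.34 (adjusted p = 2.98e-05) and 1.77 ± 0.34 (adjusted p = 0.0104). In iMo it was higher at 2, 6 and 20h (adjusted p = 4.82e-05, 0.00432 and 0.0309). Adam17 itself was not called against 0h in any cell type. Frmd8, a further iRhom partner, was called lower in IM at 2h (adjusted p = 0.02), at -0.41 ± 0.42 relative to all genes.

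Genes downstream of TNF receptors rose in part, and whether they rose through these receptors or through LPS itself was not tested. Of 10 listed, 6 were higher in IM at 2h, 5 at 6h and 2 at 20h, and in iMo 5, 4 and 2, with none lower and none called in AM. Over all genes, 7.99%, 4.63% and 4.05% were called higher in IM at these times and 8.41%, 5.95% and 7.39% in iMo. In AM, 0.134%, 1.3% and 0.112% of all genes were called at 2, 6 and 20h. Their median at 2h relative to all genes was 3.25 in IM and 1.69 in iMo. Tnfaip3, which encodes the NF-kappaB inhibitor A20, rose in IM by 6.69 ± 0.45 at 2h (adjusted p = 4.53e-09) and in iMo by 6.54 ± 0.45 (adjusted p = 1.23e-09). Traf1, an adaptor of TNFR2, rose by 4.73 ± 0.36 in IM (adjusted p = 5.9e-08) and 5.37 ± 0.36 in iMo (adjusted p = 1.23e-09), and both genes were still higher at 20h in both cell types. Tradd, Ripk1, Traf2 and Birc2 were not called against 0h. Tnfaip3 in AM was 4.44 to 12.4 TPM at 0h and 12.5 and 13.4 TPM at 2h.

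Among 7 JAK and STAT genes, Socs3, a feedback inhibitor induced through STAT3, was called in all 3 cell types. It rose in AM from 2.57 to 6.86 TPM at 0h to 45.8 and 26.1 TPM at 2h, by 2.65 ± 0.39 (adjusted p = 0.00178), and was 11.5 to 23.2 TPM at 6h (adjusted p = 0.00989). In IM it rose by 4.23 ± 0.45 at 2h (adjusted p = 3.58e-06) and in iMo by 4.73 ± 0.45 (adjusted p = 2.78e-07). In the AM libraries Il6 was at most 1.31 TPM and Il10 at most 0.457 TPM. The cause of the Socs3 rise in AM was not tested. In iMo at 20h 1 of the 7 genes was higher and 3 were lower: Jak1, Stat3 and Stat4, with log2 fold changes of -0.97 ± 0.40, -0.84 ± 0.31 and -1.16 ± 0.48 (adjusted p = 0.0258, 0.0111 and 0.03). Over all genes, 7.39% were higher and 14.8% lower there.

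The list of genes known to be induced by IL-10 held 9 genes, Socs3 and Il10ra among them. In IM 7 were higher at 2h, 5 at 6h and 2 at 20h, and in iMo 7, 4 and 2, with 1 lower at 6h and 2 lower at 20h. The shares of all genes called higher are those given for the TNF receptor list, and with 23.1% and 14.8% of all genes lower in iMo at 6 and 20h the lower calls are no result about the list. Il1rn, the IL-1 receptor antagonist, rose by 6.22 ± 0.62 in IM (adjusted p = 6.66e-07) and 7.20 ± 0.62 in iMo (adjusted p = 3.61e-08) at 2h. Hmox1, haem oxygenase, was higher at all 3 times in both, by 3.85 ± 0.53 in IM (adjusted p = 2.55e-05) and 3.88 ± 0.53 in iMo (adjusted p = 6.06e-05) at 20h. The genes lower in iMo at 20h were Il10ra and Nfil3, a transcription factor, at -1.96 ± 0.47 (adjusted p = 0.0014). Most genes of this list also respond to LPS directly.

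Regulators of AU-rich cytokine mRNA were called in both directions. In IM at 2h, 2 of 7 were higher and 2 lower, against 7.99% and 40.8% of all genes. In iMo at 2h, 1 was higher and 2 lower, against 8.41% and 24%. The lower calls lie near or under these shares, so their count is no result about the list. In IM at 2h, Zc3h12a, which encodes the RNase regnase-1, rose by 3.55 ± 0.36 (adjusted p = 3.57e-06) and Zfp36, which encodes tristetraprolin, by 2.55 ± 0.40 (adjusted p = 0.00107), while Zfp36l2 fell by 2.86 on the log2 scale (SE 0.75, adjusted p = 0.000416) and Zfp36l1 by 0.97 (SE 0.43, adjusted p = 0.00187). In iMo at 2h Zc3h12a rose by 2.42 ± 0.36 (adjusted p = 0.000238), and Zfp36l2 and Zfp36l1 were lower (adjusted p = 0.00972 and 0.0388). Zfp36 in iMo was 101 and 88.2 TPM at 0h and 118 and 197 TPM at 2h and was not called. None of the 7 tested of 8 listed genes was called in AM. Of all genes, 0.134%, 1.3% and 0.112% were called there at 2, 6 and 20h.

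Of 11 transcription factors of these genes, Nfkb1, Nfkbiz and Batf were higher at 2h in both IM and iMo. In IM at 2h, 3 of the 11 were higher and 1 lower, against 7.99% and 40.8% of all genes. In iMo at 2h, 4 were higher and 1 lower, against 8.41% and 24%. At 6 and 20h, 2 and 3 were lower in iMo, against 23.1% and 14.8%, and at 20h 1 was lower in IM, against 8.39%. With such shares the lower calls are no result about the list. Nfkbiz, a nuclear cofactor needed for Il6 and Il12b induction, rose by 3.88 ± 0.35 in IM (adjusted p = 8.36e-07) and 2.56 ± 0.35 in iMo (adjusted p = 9.94e-05). Maf, an activator of Il10, was 22.4 and 12.98 TPM in iMo at 0h, 123 and 243 TPM at 2h, 69.6 and 90.4 TPM at 6h and 66.6 and 56.8 TPM at 20h, higher at each time (adjusted p = 0.000187, 0.00759 and 0.0294). Whether the course of Maf bears on that of Il10 was not tested. In IM, Maf was 36.2 to 176 TPM and was not called. Irf8, a factor for Il12b, was lower at 2h in IM, by -1.33 ± 0.44 (adjusted p = 0.000457), and in iMo, by -0.89 ± 0.44 (adjusted p = 0.0249). Atf3, a repressor of Il6 and Il12b, was lower at 20h in both, by -2.76 ± 0.56 in IM (adjusted p = 0.000828) and -3.36 ± 0.56 in iMo (adjusted p = 6.75e-05). Of the 11 genes, 7 were higher in IM than in AM at 0h and 7 in iMo, against 15% and 16.2% of all genes, and Batf was lower in IM, by -1.30 ± 0.42 (adjusted p = 0.0231).

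**Figure D5:**
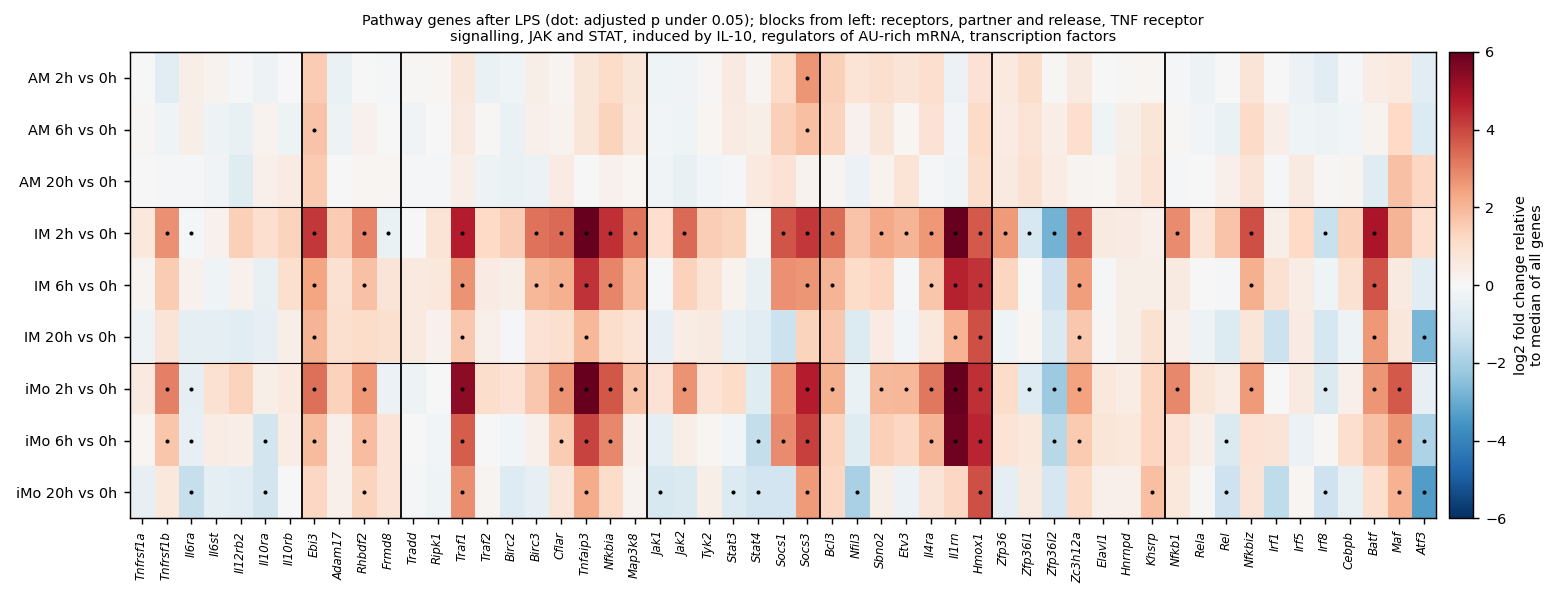
Log2 fold change from 0h, less the median over all genes, for the tested pathway genes (columns, in 7 blocks) in AM, IM and iMo at 2, 6 and 20h (rows); dots mark an adjusted p under 0.05, and colours end at -6 and 6. In AM the dots are Socs3 at 2 and 6h and Ebi3 at 6h, and in IM and iMo Tnfaip3, Il1rn and Traf1 are among the deepest red at 2h.

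The genes most like each cytokine were found by Pearson correlation of mean log2(TPM + 1) over the 12 groups, which share title codes, and are given as a description. Tnf was most like Ccl3, a chemokine (r = 0.961). Il6 was most like Il4i1, a secreted amino acid oxidase (r = 0.981), and Nos2, inducible nitric oxide synthase (r = 0.979), and Il12a most like Cflar, an inhibitor of caspase-8 (r = 0.975), and Nos2 (r = 0.973). For Il27 the nearest genes were the interferon-inducible Nmi and Gbp7 (r = 0.988 each), and for Il23a Snai1 (r = 0.973). Il10 had the lowest best match, Acsl5, a fatty acid ligase (r = 0.94), followed by Ubtd1 (r = 0.927) and Siglece, an inhibitory receptor of myeloid cells (r = 0.91). Among the members, Il6 and Il12a were most alike (r = 0.948), and Il27 and Il10 stood at r = 0.496.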

How the data were processed

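Libraries were made by the authors from 500 to 5000 sorted cells, and reads were processed with STAR and HOMER on mm10, per the submitters' processing notes; their roles, their versions and the depth per library were not found in the labels. The deposited values are TPM per gene, with no counts, so no count model was used. From the 27 columns of 0h and intraperitoneal LPS, log2(TPM + 1) was fitted with limma 3.58.1 (trend, R 4.3.3) in 1 model of 12 groups over the 8937 genes that reached 5 TPM in 2 or more libraries, with Benjamini-Hochberg adjustment within each comparison. The script was tested on simulated data. Rn45s, an unprocessed ribosomal transcript, held 4.33% to 33.3% of a library's TPM. The members, gene lists and tests were chosen with earlier results of these data known. Pathway genes named were up to 4 per list and comparison, by the size of the change among those called. One pathway list is given without a gene that is not reported here. Gene names are the table's own, and no pair of columns was identical. Alternatives were other pseudocounts, filters and scalings, quantile normalization, array weights, a term for title code, a block for the replicate label, the compared libraries alone and leaving out each library. The label block was not used in the main tests: of 16 pairs with the same label and time, 8 correlated above 0.1 in their deviations from group means (r from -0.14 to 0.507). In groups of 2 the deviations mirror each other, so some of these pairs repeat the same value and are not independent.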

Additional observations from a re-analysis of the deposited data

Results flagged for a closer look

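The response to intraperitoneal LPS differed among AM, IM and iMo by the F test for Tnf (adjusted p = 0.000155), Il10 (adjusted p = 0.000191), Il6 (adjusted p = 0.000417), Il12a (adjusted p = 0.00217) and Il23a (adjusted p = 0.0136). For all 5 no change was called in AM, and all 5 were called higher in IM at 2h; Il6, Il12a, Il23a and Il10 were tested only because they were high in LPS libraries.

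In the 4 AM libraries of 0h, Il6, Il12a and Il10 were each above 0 in a single library, a different one for each gene, and listed at 0 in the other 3: Il6 at 0.451 TPM in A171227, Il12a at 0.436 TPM in D171227 and Il10 at 0.384 TPM in N160623. With 3 values at 0 the gap to range ratio is 1 by construction, so the mark says only that the zeros are there.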

How the results depend on the processing

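Of 65 member calls between times or cell types, 39 held without each library in turn, 43 under every other alternative and 35 under both; none reversed. All 8 calls between successive times were lost in at least 1 alternative. With the libraries N160623 left out, 1 member was called in AM over the 3 times against 0 in the main fit. A term for title code, which rests on 1 AM library of 0h, gave 6 calls in iMo against 12 and 13 calls between successive times against 8. Between successive times, a pseudocount of 0.1 TPM gave 1 call, no filter 4 and the compared libraries alone 5, and leaving out each library 5 (without iMo B161219 of 6h) to 10. Between cell types at 0h, calls rose from 2 to 4, adding Tnf as lower in IM and iMo than in AM, after rescaling without Rn45s and Lars2, with array weights, with the title code term, with the replicate block (adjusted p = 0.0275 and 0.017) and without the libraries N160623; leaving out each library gave 1 (without IM B171227 or iMo B171227) to 4 (without AM N160623). A pseudocount of 0.1 TPM left 2 of 5 responses that differed among cell types, and the other settings gave 4 to 6. The replicate block, with a correlation of 0.392, pairs libraries that share only a label, and not every library correlated best with its own label. It also ended the Il27 call from 6 to 20h in iMo (adjusted p = 0.0552) and called Il12a lower in iMo than in IM at 20h (adjusted p = 0.0152), Il6 higher in iMo than in AM at 20h (adjusted p = 0.0148), Il23a lower from 2 to 6h in IM (adjusted p = 0.0493), the Tnf response at 2h lower in iMo than in IM (adjusted p = 0.0345) and 3 other differences of responses. The cause of these shifts was not tested. With 2 libraries in most groups and most levels near or under 1 TPM, small changes of Il12b and Il23a were not detectable. The same holds for Il6, Il12a and Il10 in AM. Tnf and Il27 in AM lay higher, at 3.33 to 13.7 and 1.97 to 4.39 TPM, but small changes there may also have been missed.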
